A study of Mus musculus with 6 samples.

Results

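The transcripts of the hypothalamic arcuate nucleus (ARC) were compared between mice given dexamethasone together with Zj7 (Dex+Zj7) and mice given vehicle, to describe what remained of the glucocorticoid response when both compounds were present. Dexamethasone (Dex) is a synthetic agonist of the glucocorticoid receptor (GR), and Zj7 is a compound that the study describes as a selective modulator of GR. The comparison set 2 libraries of Dex+Zj7 against 2 of vehicle, 4 of the 6 libraries of the series, over all 21461 genes of the deposited count table. The tests were fitted on all 6 libraries, so the estimate of the spread also used the Dex libraries. The other 2 libraries came from mice given Dex alone, and their values are given beside those of Dex+Zj7 where the treated groups are set against each other. No group of the series was given Zj7 alone. Effects of Zj7 itself can thus not be told apart from the remaining response to Dex. All 3 groups were male C57BL/6 mice of 10 weeks, injected intraperitoneally and dissected after 24 h. The Dex+Zj7 group received Dex at 10 mg/kg and, by the study's methods, Zj7 at 50 mg/kg, the Dex group received Dex at 10 mg/kg, and the control group received vehicle. The sample labels name 10 mg/kg as the only dose of the combined treatment, and they call only the vehicle mice fed, so a difference in feeding between the groups was not tested. It is not stated whether each library stands for its own mouse. The p-values thus cover the variation among these libraries, part of which may be technical.

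GR rests in the cytoplasm on a chaperone complex built on Hsp90 and moves to the nucleus when it binds a glucocorticoid. There it activates genes through glucocorticoid response elements, imperfect palindromes bound by a receptor dimer, and it represses many genes of inflammation through other transcription factors. In the ARC, glucocorticoids are known to raise the orexigenic peptides of the AgRP/NPY neurons, which oppose the POMC neurons in the control of feeding. GR is also active in astrocytes, oligodendrocytes, microglia and the cells of the vessel wall, all of which contribute RNA to a dissected nucleus.

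The libraries held 50704789 to 61122938 counts. Neuropeptides of the ARC had these levels on the length-corrected TPM scale: *Agrp* at 47.4 and 55.1 TPM with Dex+Zj7 against 22.6 and 21.7 TPM with vehicle, and *Npy* at 191 and 209 TPM with Dex+Zj7 against 166 and 120 TPM with vehicle. All 20 markers of neighbouring hypothalamic regions also had counts in every library, and how much neighbouring tissue the dissections held was not tested. Of 11 pituitary markers, 3 were measured. *Pomc*, the precursor of the anorexigenic peptide alpha-MSH, had 21.2 and 21.4 CPM with Dex+Zj7 against 28.04 and 131 CPM with vehicle. One vehicle library therefore stood apart for *Pomc*, and the same library was high for the dopamine transporter gene *Slc6a3*, with 5.38 and 5.89 CPM with Dex+Zj7 against 5.97 and 21.2 CPM with vehicle. Neither gene was called, and no direction is given for them.

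In the comparison of Dex+Zj7 with vehicle, 730 genes were higher (3.40% of those tested) and 853 were lower (3.97%), by edgeR's quasi-likelihood test with a Benjamini-Hochberg adjusted p under 0.05. Counts of called list members given below are to be read beside these shares. The higher genes had a median log2 fold change of 0.45, and 175 of them were raised at least 2-fold. The lower genes had a median of −0.77, with 311 lowered at least 2-fold. At least 4-fold changes were found for 47 higher and 81 lower genes, and 452 higher and 323 lower genes changed by less than 1.5-fold. Protein-coding genes made up 87.0% of the called genes, against 73.6% of all genes tested. An unadjusted p under 0.05 was found for 5385 genes (25.1%). The Dex+Zj7 and vehicle libraries were free of overlap in all 730 higher and all 853 lower genes. The same held for 12466 of all genes tested (58.1%), so a lack of overlap is no further evidence for a call. The number of calls depended on every one of the 4 libraries and on the Dex libraries, which entered the shared estimate of the spread. A fit of the 4 libraries alone gave 1132 higher and 1205 lower genes. Without Dex+Zj7 library 1 there were 155 higher and 156 lower genes, without Dex+Zj7 library 2 232 and 252, without vehicle library 1 156 and 227, and without vehicle library 2 118 and 236. A core of 95 higher and 102 lower genes was called with the same direction in each of these 4 fits, and genes of this core are called stable calls here. In these fits 1 group holds a single library, which is assumed to vary like the others.

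**Figure D1:**
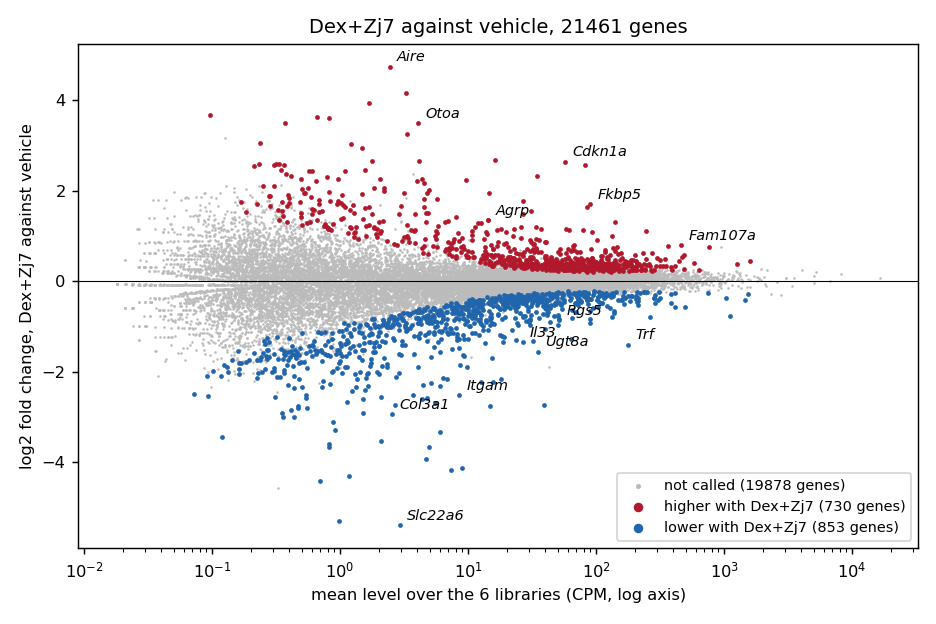
Log2 fold change of Dex+Zj7 against vehicle (vertical axis) by mean level over the 6 libraries in CPM (horizontal log axis) for the 21461 genes, with higher genes in red (730), lower genes in blue (853) and genes not called in grey (19878). The higher genes with the largest changes, such as Aire (4.73), have low levels, while Fam107a (0.79) and Trf (−1.40) are called at levels above 100 CPM.

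The genes known to be induced by glucocorticoids were mostly higher. Of a list of 30, 19 were higher and 1 was lower with Dex+Zj7 than with vehicle. The median log2 fold change was 0.63, beside a median of −0.0014 over all genes. The list was drawn up with earlier results of these data known. It also holds *Sgk1*, *Sgk3*, *Cdkn1a*, *Nfkbia* and *Bcl6*, which the study chose for RT-PCR on these libraries. The count is thus not independent evidence of direction. When the list was recounted with 1 library left out, 12 members were called without Dex+Zj7 library 1, 20 without Dex+Zj7 library 2, 12 without vehicle library 1 and 13 without vehicle library 2. *Fkbp5*, which encodes the immunophilin that restrains GR in its chaperone complex, had 125 and 93.9 CPM with Dex+Zj7 against 36.02 and 31.4 CPM with vehicle. Both Dex+Zj7 libraries lay far above both vehicle libraries (log2 fold change 1.70, SE 0.13, adjusted p = 6.80e-04). *Cdkn1a*, the gene of the cell cycle inhibitor p21, had 82.9 and 50.1 CPM with Dex+Zj7 against 11.1 and 10.3 CPM with vehicle, and these groups did not overlap either (log2 fold change 2.64, SE 0.21, adjusted p = 7.60e-04). *Plin4*, a perilipin gene that coats lipid droplets, had 126 and 82.5 CPM with Dex+Zj7 against 16.5 and 18.8 CPM with vehicle (log2 fold change 2.56, SE 0.18, adjusted p = 6.40e-04). It overlaps *Hdgfl2*, and no source used here says whether strand was used when reads were counted, so values of overlapping genes are uncertain. The same limit holds for *Sgk3* (overlaps Gm2352), *Fyb2* (Gm52670), *Acvr1c* (Gm13544), *Ciart* (C920021L13Rik) and *Dbp* (*Sphk2*). Overlaps are not stated for every gene named. The kinase gene *Sgk3*, a relative of *Sgk1*, had 49.03 and 32.6 CPM with Dex+Zj7 against 8.08 and 8.25 CPM with vehicle (log2 fold change 2.32, SE 0.18, adjusted p = 7.10e-04). *Sgk1* itself, which encodes the serum- and glucocorticoid-regulated kinase, had 174 and 131 CPM with Dex+Zj7 against 89.2 and 63.3 CPM with vehicle (log2 fold change 1.0, SE 0.16, adjusted p = 0.012), and this call was lost without Dex+Zj7 library 1 (adjusted p = 0.076). The sulfotransferase gene *Sult1a1*, which overlaps *Slx1b*, had the smallest p of the higher genes, with 41.7 and 38.05 CPM with Dex+Zj7 against 14.1 and 13.2 CPM with vehicle (log2 fold change 1.55, SE 0.09, adjusted p = 3.20e-04). The metallothionein gene *Mt1*, whose product binds zinc and copper, was higher by less, with 158 and 168 CPM with Dex+Zj7 against 104 and 106 CPM with vehicle (log2 fold change 0.63, SE 0.07, adjusted p = 0.0022). The transcription factor genes *Klf15* and *Hif3a* were also stable calls, with log2 fold changes of 0.71 and 1.19.

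Some established targets were not called at 24 h. *Tsc22d3*, which encodes the anti-inflammatory protein GILZ, had 128 and 85.6 CPM with Dex+Zj7 against 92.4 and 84.8 CPM with vehicle (log2 fold change 0.27, adjusted p = 0.32), so that 1 Dex+Zj7 library was above both vehicle libraries and the other was between them. The clock gene *Per1* had 72.8 and 75.4 CPM with Dex+Zj7 against 74.8 and 67.8 CPM with vehicle (log2 fold change 0.06, adjusted p = 0.66), and its groups overlapped. The 1 lower member was *Lcn2*, which encodes the iron-binding acute phase protein lipocalin 2, with 0.731 and 1.197 CPM with Dex+Zj7 against 4.896 and 2.92 CPM with vehicle (log2 fold change −2.01, SE 0.36, adjusted p = 0.017). Its call was lost without Dex+Zj7 library 1 or vehicle library 1 (adjusted p up to 0.11). *Nr3c1*, the gene of GR, had 93.7 and 94.2 CPM with Dex+Zj7 against 103 and 93.4 CPM with vehicle and was not called (adjusted p = 0.63).

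The 2 libraries of Dex+Zj7 differed from each other in these genes. In 27 of the 30, Dex+Zj7 library 2 was below Dex+Zj7 library 1. Summed over the list, the levels were 3729 and 3160 CPM with Dex+Zj7, 3815 and 3839 CPM with Dex, and 2306 and 2277 CPM with vehicle. The median member was 0.77 and 0.45 above the vehicle mean on the log2 scale in Dex+Zj7 libraries 1 and 2, with 0.81 and 0.87 for Dex. Dex+Zj7 library 1 was below both Dex libraries in 10 members and above both in 10, whereas Dex+Zj7 library 2 was below both in 26 and above both in 0. The same counts were not made over all genes, so how far this order is particular to the list was not tested. None of the 30 was called between Dex+Zj7 and Dex by the quasi-likelihood test, 7 had an unadjusted p under 0.05, and DESeq2, edgeR's exact test and limma-voom called 1, 1 and 0. Over all genes 5.24% had an unadjusted p under 0.05 in this comparison.

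**Figure D2:**
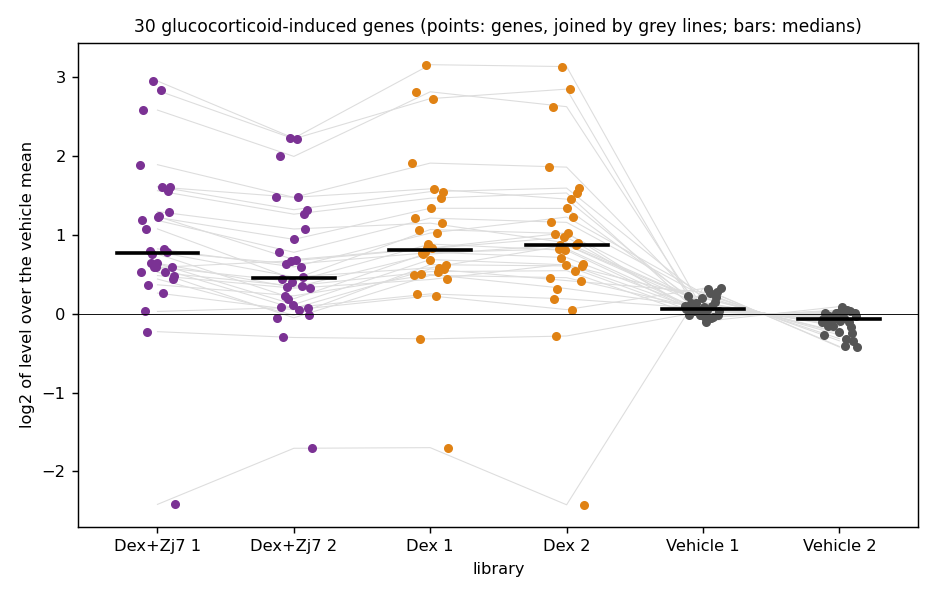
Level of each of the 30 glucocorticoid-induced genes in the 6 libraries (horizontal axis), as log2 of the level over the vehicle mean (vertical axis), with points for genes and black bars for medians. The median is 0.77 in Dex+Zj7 library 1 and 0.45 in Dex+Zj7 library 2, against 0.81 and 0.87 with Dex and 0.06 and −0.07 with vehicle.

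A palindrome like the element that GR binds was looked for in the promoters of the called genes, since GR is known to bind such elements. The motif was GNACA, 3 bases of any kind and then TGTNC, which reads the same on both strands, in the window of 250 bases before to 50 bases after the annotated start in the RefSeq promoter table (GRCm38.p6). It was found in 11 of the 545 higher genes with a window (2.02%), in 1 of 640 lower genes (0.156%), and in 64 of all 14918 tested genes with a window (0.429%). Over the whole table of 27025 genes the share was 0.537%. A match is a description of the letters and not a site that was shown to be bound. For each of the 4 genes chosen for naming that hold the palindrome, 1 window is given 5′ to 3′ on the gene's strand. The match is in capitals. The windows show how the arms and the spacer vary between genes that were raised by 0.63 to 3.25 on the log2 scale.
Fam107a, chr14:8309728-8310027, minus strand: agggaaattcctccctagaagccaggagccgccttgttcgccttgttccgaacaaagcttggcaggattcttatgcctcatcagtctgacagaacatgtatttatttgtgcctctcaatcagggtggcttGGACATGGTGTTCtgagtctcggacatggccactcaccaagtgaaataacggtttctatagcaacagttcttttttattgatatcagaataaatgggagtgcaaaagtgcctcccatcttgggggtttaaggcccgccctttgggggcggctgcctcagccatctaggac
Fyb2, chr4:104913311-104913610, plus strand: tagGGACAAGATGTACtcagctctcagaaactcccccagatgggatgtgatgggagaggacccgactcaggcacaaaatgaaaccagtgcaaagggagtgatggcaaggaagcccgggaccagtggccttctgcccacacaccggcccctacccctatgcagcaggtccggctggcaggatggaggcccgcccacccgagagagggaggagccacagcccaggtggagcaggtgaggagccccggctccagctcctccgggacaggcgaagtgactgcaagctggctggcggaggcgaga
Mt1, chr8:94178839-94179138, plus strand: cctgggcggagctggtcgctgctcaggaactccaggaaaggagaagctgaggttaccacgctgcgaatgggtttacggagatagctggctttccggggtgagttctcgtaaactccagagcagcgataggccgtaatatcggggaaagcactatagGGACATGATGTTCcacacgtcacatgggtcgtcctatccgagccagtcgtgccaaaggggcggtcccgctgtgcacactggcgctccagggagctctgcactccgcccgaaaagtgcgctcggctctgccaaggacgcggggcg
Sgk1, chr10:21993640-21993939, plus strand: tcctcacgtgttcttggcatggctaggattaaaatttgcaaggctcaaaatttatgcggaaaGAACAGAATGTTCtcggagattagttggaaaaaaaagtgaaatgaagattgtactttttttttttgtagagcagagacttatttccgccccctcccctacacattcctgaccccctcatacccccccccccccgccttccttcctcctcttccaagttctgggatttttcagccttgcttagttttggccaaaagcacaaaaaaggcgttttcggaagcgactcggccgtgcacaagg
The match starts 120 bases before the annotated start in the *Fam107a* window given, 247 in *Fyb2*, 94 in *Mt1* and 188 in *Sgk1*. *Fam107a* has another annotated start, and the same match begins 118 bases before it. *Fam107a*, a stress-responsive gene whose product binds actin, had 541 and 509 CPM with Dex+Zj7 against 303 and 304 CPM with vehicle and was the most abundant of the 4 genes (log2 fold change 0.79, SE 0.06, adjusted p = 6.80e-04). *Fyb2*, which encodes an adaptor protein first described in T cells, was nearly silent with vehicle, with 4.96 and 3.43 CPM with Dex+Zj7 against 0.432 and 0.443 CPM with vehicle (log2 fold change 3.25, SE 0.30, adjusted p = 0.0013). Both were stable calls whose libraries did not overlap between the groups.

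Among the genes of the AgRP neurons, *Agrp* itself was raised and its companion *Npy* was not called. *Agrp*, which encodes the orexigenic antagonist of melanocortin receptors, had 13.5 and 15.8 CPM with Dex+Zj7 against 6.297 and 5.19 CPM with vehicle. Every Dex+Zj7 library was above every vehicle library and below every Dex library (log2 fold change 1.35, SE 0.13, adjusted p = 0.0014). Against Dex the log2 fold change of *Agrp* was −0.62 (quasi-likelihood test, unadjusted p = 0.00059, adjusted p = 0.4), so that test did not pass after adjustment. Among the 13 genes of the AgRP neurons, 5 had an unadjusted p under 0.05 against Dex. The quasi-likelihood test called 0 of the 13, and DESeq2, edgeR's exact test and limma-voom called 1, 2 and 0. Which members these tools called is not given here. *Agrp* overlaps the predicted gene Gm38250. *Npy*, the gene of neuropeptide Y, had 39.7 and 43.8 CPM with Dex+Zj7 against 33.6 and 24.4 CPM with vehicle, and its log2 fold change against vehicle was 0.52 (SE 0.15, adjusted p = 0.077). *Ghsr*, the ghrelin receptor gene of these neurons, had 24.8 and 21.8 CPM with Dex+Zj7 against 15.5 and 10.6 CPM with vehicle (log2 fold change 0.84, SE 0.18, adjusted p = 0.03), a call that was lost without either Dex+Zj7 library or vehicle library 2. Of the 13 genes of the list, 3 were higher (*Agrp*, *Ghsr* and the activin receptor gene *Acvr1c*) and 1 was lower, the ubiquitin ligase adaptor gene *Asb4* (log2 fold change −0.46, adjusted p = 0.024, lost with 3 of the 4 libraries left out, up to 0.15). *Agrp* alone was a stable call, and 1 member was called without Dex+Zj7 library 1, 2 without Dex+Zj7 library 2, 3 without vehicle library 1 and 2 without vehicle library 2.

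Genes of other ARC neurons were set beside all genes tested, of which 3.40% were higher and 3.97% were lower. In the POMC list 8.33% were higher and 0% were lower. In the list of other peptide and amine genes 6.25% were higher and 12.5% were lower. Of 12 genes of the POMC neurons, 1 was higher, *Pcsk2*, which encodes the prohormone convertase that trims POMC into its peptides, with 392 and 388 CPM with Dex+Zj7 against 282 and 271 CPM with vehicle (log2 fold change 0.50, SE 0.06, adjusted p = 0.0031). It was a stable call and overlaps *Pcsk2os1*. Of 16 other peptide and amine genes of the ARC, *Ddc* rose and *Ghrh* and *Esr1* fell. *Ddc*, which encodes the decarboxylase that makes dopamine and serotonin, had 75.5 and 67.7 CPM with Dex+Zj7 against 43.1 and 44.1 CPM with vehicle, with no overlap between the groups (log2 fold change 0.72, SE 0.07, adjusted p = 0.0018). *Ghrh*, the growth hormone-releasing hormone gene, had 4.07 and 3.36 CPM with Dex+Zj7 against 5.86 and 6.83 CPM with vehicle (log2 fold change −0.77, SE 0.17, adjusted p = 0.031), and the estrogen receptor gene *Esr1* was −0.42 on the log2 scale (adjusted p = 0.049). Both of these calls were lost with any 1 of the 4 libraries left out (adjusted p up to 0.19 and 0.22). *Oxt*, the oxytocin gene, had 58.2 and 46.02 CPM with Dex+Zj7 against 31.4 and 26.1 CPM with vehicle (log2 fold change 0.86, SE 0.13, adjusted p = 0.0085), and its call was lost without Dex+Zj7 library 1 or vehicle library 2.

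A short list holds the genes that were also measured by RT-PCR. The study reports significant changes with Dex and Zj7 in those separate measurements, which were not re-analysed here. In the libraries, 6 of these 8 genes were higher than with vehicle and none was lower. These were *Agrp*, *Cdkn1a*, *Sgk1*, *Sgk3*, the phosphatase gene *Ptpn11*, whose product SHP2 acts downstream of receptor tyrosine kinases, and *Bcl6*, which encodes a transcriptional repressor. The study chose them on these libraries, so their count is not independent evidence of direction. *Ptpn11* had 339 and 306 CPM with Dex+Zj7 against 229 and 222 CPM with vehicle (log2 fold change 0.52, SE 0.07, adjusted p = 0.0058), lost only without vehicle library 2 (adjusted p = 0.06), and the call of *Bcl6* was lost without Dex+Zj7 library 1 or either vehicle library (up to 0.17). *Npy* and *Nfkbia*, the inhibitor of NF-kappaB, were not called (adjusted p = 0.077 and 0.21). Against Dex, the log2 fold changes of all 8 were negative, with a median of −0.33. The quasi-likelihood test called 0 of them, with 4 at an unadjusted p under 0.05, and DESeq2, edgeR's exact test and limma-voom called 1, 2 and 0.

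**Figure D3:**
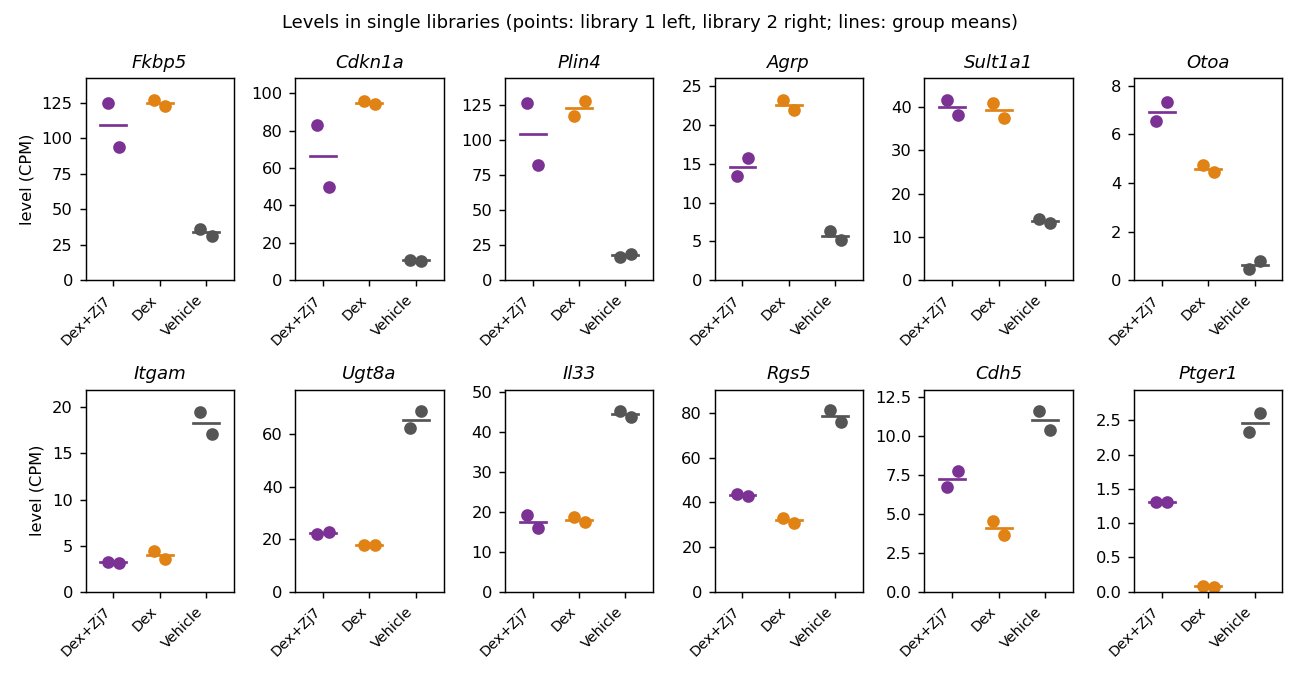
Levels in CPM (vertical axes, from 0) of 12 genes in the single libraries of Dex+Zj7 (purple), Dex (orange) and vehicle (grey), with points for libraries and lines for group means. Fkbp5, Cdkn1a, Plin4, Agrp, Sult1a1 and Otoa are higher in both Dex+Zj7 libraries than in both vehicle libraries, and Itgam, Ugt8a, Il33, Rgs5, Cdh5 and Ptger1 are lower.

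Of 23 lipid droplet and fuel switch genes, 7 were higher, 1 was lower and 15 were not called, and 5 of the 8 calls were stable. The higher genes *Plin4*, *Pdk4*, *Angptl4* and *Hif3a* are also counted in the list of glucocorticoid-induced genes. *Pnpla2*, which encodes the triglyceride lipase ATGL, had 73.1 and 56.8 CPM with Dex+Zj7 against 28.98 and 29.5 CPM with vehicle (log2 fold change 1.15, SE 0.11, adjusted p = 0.0014). *Slc2a4*, the gene of the insulin-responsive glucose transporter GLUT4, had 13.2 and 11.6 CPM with Dex+Zj7 against 3.06 and 2.22 CPM with vehicle (log2 fold change 2.23, SE 0.16, adjusted p = 6.40e-04). In both genes every Dex+Zj7 library exceeded every vehicle library. *Angptl4*, which encodes an inhibitor of lipoprotein lipase, had 7.99 and 5.46 CPM with Dex+Zj7 against 3.29 and 3.49 CPM with vehicle (log2 fold change 0.99, SE 0.20, adjusted p = 0.025), a call that was lost without Dex+Zj7 library 1 or either vehicle library. The lower gene was *Fabp7*, the brain fatty acid-binding protein gene of radial glia and astrocytes, with 8.14 and 10.7 CPM with Dex+Zj7 against 23.7 and 24.8 CPM with vehicle (log2 fold change −1.36, SE 0.15, adjusted p = 0.0029). Of 13 genes that restrain the kinase complex mTORC1, 3 were higher (*Ddit4*, *Sesn1* and *Castor1*), with log2 fold changes of 0.50, 0.35 and 0.67, and between 0 and 1 of them remained with a library left out (adjusted p up to 0.26).

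Further stable calls had no common list. *Otoa*, which encodes the inner ear matrix protein otoancorin, had 6.54 and 7.35 CPM with Dex+Zj7 against 0.4498 and 0.794 CPM with vehicle, the largest change in proportion among the 12 higher genes with the smallest p (log2 fold change 3.49, SE 0.24, adjusted p = 6.40e-04). *Gabrr2*, the gene of the rho2 subunit of GABA-A receptors, had 6.59 and 5.61 CPM with Dex+Zj7 against 1.11 and 0.831 CPM with vehicle (log2 fold change 2.65, SE 0.20, adjusted p = 6.80e-04). *Hr*, which encodes the corepressor hairless, had 189 and 159 CPM with Dex+Zj7 against 65.9 and 76.04 CPM with vehicle (log2 fold change 1.30, SE 0.10, adjusted p = 6.80e-04). The libraries of these genes did not overlap between the groups, as in every called gene. *Cited1*, the gene of a transcriptional coactivator, had 30.3 and 32.2 CPM with Dex+Zj7 against 13.04 and 14.1 CPM with vehicle (log2 fold change 1.20, SE 0.08, adjusted p = 6.20e-04), and the long noncoding RNA *Zfas1* had 27.9 and 27.7 CPM with Dex+Zj7 against 14.05 and 13.7 CPM with vehicle (log2 fold change 1.0, SE 0.08, adjusted p = 6.80e-04). *Zfas1* overlaps *Znfx1*. The largest rise of the named genes was that of *Aire*, the autoimmune regulator known from the thymus, with 4.65 and 2.57 CPM with Dex+Zj7 against 0.225 and 0.0369 CPM with vehicle (log2 fold change 4.73, SE 0.52, adjusted p = 0.0027). The metalloproteinase gene *Adamts14* followed, with 5.43 and 3.56 CPM with Dex+Zj7 against 0.156 and 0.351 CPM with vehicle (log2 fold change 4.15, SE 0.36, adjusted p = 0.001). Both had vehicle levels below 1 CPM, so their ratios rest on few counts.

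Astrocyte genes moved in both directions. Of 22 markers, 7 were higher and 4 were lower, the median was −0.01, and the summed level was 9414 and 9613 CPM with Dex+Zj7 against 8778 and 9084 CPM with vehicle. *Agt*, which encodes angiotensinogen and is made by astrocytes in the brain, had 417 and 422 CPM with Dex+Zj7 against 253 and 239 CPM with vehicle (log2 fold change 0.77, SE 0.07, adjusted p = 0.0011). *Aqp4*, the water channel gene of astrocyte end-feet, had 66.4 and 71.5 CPM with Dex+Zj7 against 128 and 135 CPM with vehicle (log2 fold change −0.93, SE 0.11, adjusted p = 0.0044). The groups overlapped in neither gene, and the changes had opposite signs. *Gjb6*, the gene of the astrocyte gap junction protein connexin 30, was higher (log2 fold change 0.47, adjusted p = 0.007, lost without Dex+Zj7 library 1 or vehicle library 1). Leaving out 1 library changed the count, so that 4 members were called without Dex+Zj7 library 1, 6 without Dex+Zj7 library 2, 2 without vehicle library 1 and 5 without vehicle library 2.

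Microglial genes were mostly lower, with more stable calls than any other list. Of 25 markers, 16 were lower and 1 was higher with Dex+Zj7 than with vehicle, the median was −0.79, and 13 of the 17 were stable calls. Their summed level was 244 and 237 CPM with Dex+Zj7 against 412 and 417 CPM with vehicle, with 248 and 253 CPM under Dex. In tissue RNA, fewer cells of a type and less RNA per cell cannot be told apart. *Itgam*, which encodes the complement receptor subunit CD11b, had 3.25 and 3.15 CPM with Dex+Zj7 against 19.5 and 17.1 CPM with vehicle (log2 fold change −2.51, SE 0.14, adjusted p = 3.20e-04). *Fcrls*, an Fc receptor-like gene of resident microglia, had 2.59 and 1.89 CPM with Dex+Zj7 against 10.1 and 11.1 CPM with vehicle (log2 fold change −2.24, SE 0.18, adjusted p = 8.00e-04). *Mpeg1*, the gene of the pore-forming protein perforin-2, had 5.06 and 5.53 CPM with Dex+Zj7 against 16.99 and 15.97 CPM with vehicle (log2 fold change −1.64, SE 0.14, adjusted p = 0.001). In all of these the treated libraries lay together and far below the vehicle libraries. *Cx3cr1*, the fractalkine receptor gene, had 3.55 and 10.9 CPM with Dex+Zj7 against 33.6 and 34.3 CPM with vehicle, so the Dex+Zj7 libraries differed from each other while both stayed below vehicle (log2 fold change −2.23, SE 0.37, adjusted p = 0.013). *Csf1r*, which encodes the receptor that microglia need to survive, fell by less, with 48.5 and 41.7 CPM with Dex+Zj7 against 69.6 and 69.4 CPM with vehicle (log2 fold change −0.62, SE 0.08, adjusted p = 0.0048). The 1 higher member was *Itgb2*, the gene of CD18, the partner chain of CD11b, with 5.25 and 6.31 CPM with Dex+Zj7 against 3.44 and 3.36 CPM with vehicle (log2 fold change 0.77, SE 0.19, adjusted p = 0.044), and its call was lost with any 1 of the 4 libraries left out (adjusted p up to 0.21). The lysosomal gene *Cd68* and the myeloid transcription factor gene *Spi1* were not called (log2 fold changes 0.25 and −0.17).

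Calls among other immune genes were mostly lower. Of 20 MHC and antigen presentation genes, 4 were lower and none was higher. *Cd74*, which encodes the invariant chain of MHC class II, had 0.661 and 0.951 CPM with Dex+Zj7 against 3.62 and 3.05 CPM with vehicle (log2 fold change −2.04, SE 0.25, adjusted p = 0.0043), and *Ctss*, the gene of cathepsin S, which degrades that chain, had 28.1 and 24.98 CPM with Dex+Zj7 against 42.4 and 42.9 CPM with vehicle (log2 fold change −0.69, SE 0.09, adjusted p = 0.0055). Both were stable calls without overlap between the groups. Of 27 chemokines, interleukins and receptors, 7 were lower and none was higher. Of its 4 stable calls, *Cx3cr1* and *Csf1r* are also in the microglial list, and the others were *Il33* and *Il6st*. *Il33*, an alarmin gene that glia express, had 19.2 and 15.9 CPM with Dex+Zj7 against 45.3 and 43.8 CPM with vehicle (log2 fold change −1.34, SE 0.10, adjusted p = 6.40e-04), and *Il6st*, which encodes the shared receptor subunit gp130, had 91.2 and 90.8 CPM with Dex+Zj7 against 125 and 120 CPM with vehicle (log2 fold change −0.43, SE 0.05, adjusted p = 0.0048). Of 37 interferon-response genes, 10 were lower and 1 was higher, *Oas1b*, a member of the oligoadenylate synthetase family, with 1.2005 and 1.28 CPM with Dex+Zj7 against 0.467 and 0.277 CPM with vehicle. The interferon calls were not stable, since 0 members were called without Dex+Zj7 library 1, 2 without Dex+Zj7 library 2, 1 without vehicle library 1 and 2 without vehicle library 2. Microglia also express many of these genes, and the part of the microglial decrease in their counts was not tested. Among 16 NF-kappaB subunits and inhibitors the quasi-likelihood test called 0, with 2 at an unadjusted p under 0.05, and DESeq2, edgeR's exact test and limma-voom called 0, 1 and 0.

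Calls among oligodendrocyte genes were all lower. Of 26 markers, 15 were lower and none was higher, with a median of −0.64, and 10 were stable calls. The summed level was 5252 and 5617 CPM with Dex+Zj7, 5170 and 5145 CPM with Dex, and 6669 and 7249 CPM with vehicle. Against Dex, 23 of the 26 log2 fold changes were positive, with a median of 0.18 beside 0.0021 over all genes. The quasi-likelihood test, DESeq2, edgeR's exact test and limma-voom each called 0 of them. An unadjusted p under 0.05 was found for 9, beside 5.24% of all genes. The members share the same 2 libraries a group, so these counts are not separate observations. *Ugt8a*, the gene of the enzyme that makes galactosylceramide for myelin, had 21.9 and 22.7 CPM with Dex+Zj7 against 62.3 and 68.7 CPM with vehicle and the smallest p of all lower genes (log2 fold change −1.56, SE 0.07, adjusted p = 2.30e-04). *Trf*, which encodes transferrin, had 101 and 123 CPM with Dex+Zj7 against 282 and 309 CPM with vehicle (log2 fold change −1.40, SE 0.09, adjusted p = 6.40e-04). *Car2*, the carbonic anhydrase 2 gene, had 39.3 and 48.3 CPM with Dex+Zj7 against 98.8 and 113 CPM with vehicle (log2 fold change −1.28, SE 0.10, adjusted p = 9.50e-04). The treated libraries were below the vehicle libraries in each of these genes. *Mbp* and *Mobp*, genes of abundant myelin proteins, were not called (log2 fold changes −0.11 and 0.08). *Enpp2*, which encodes autotaxin, the enzyme that makes lysophosphatidic acid, had 114 and 111 CPM with Dex+Zj7 against 175 and 192 CPM with vehicle (log2 fold change −0.70, SE 0.06, adjusted p = 0.0011), and *Lpar1*, a receptor for that lipid, had 12.6 and 12.2 CPM with Dex+Zj7 against 31.5 and 31.01 CPM with vehicle (log2 fold change −1.33, SE 0.12, adjusted p = 0.0011). Markers of oligodendrocyte precursors gave 1 higher and 1 lower call of 10.

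Of 36 endothelial and blood-brain barrier markers, 8 were lower and 2 were higher than with vehicle, with a median of −0.29. The 2 higher genes were *Mfsd2a*, which encodes the transporter of omega-3 fatty acids at the barrier, with 77.5 and 63.7 CPM with Dex+Zj7 against 29.03 and 35.2 CPM with vehicle (log2 fold change 1.14, SE 0.12, adjusted p = 0.002), and the amino acid transporter gene *Slc7a5* (log2 fold change 0.33, adjusted p = 0.017). Of these 10 calls *Mfsd2a* alone was stable, and 1 member was called without Dex+Zj7 library 1, 8 without Dex+Zj7 library 2, 2 without vehicle library 1 and 3 without vehicle library 2. Set against vehicle, the Dex group had 25 lower and 2 higher members and a median of −0.87. Both comparisons share the vehicle libraries, so the direct comparison of the treated groups was read instead. In it, 34 of the 36 log2 fold changes of Dex+Zj7 against Dex were positive, with a median of 0.60 beside a median of 0.0021 over all genes. None was called by the quasi-likelihood test, 26 had an unadjusted p under 0.05, and DESeq2, edgeR's exact test and limma-voom called 13, 14 and 0. Over all genes 5.24% had an unadjusted p under 0.05, and these tools called 66, 96 and 1. The members share the same 2 libraries a group, so their counts are not separate observations of the treatment. The summed level was 768 and 781 CPM with Dex+Zj7, 647 and 626 CPM with Dex, and 815 and 810 CPM with vehicle. *Cdh5*, the VE-cadherin gene, had 6.73 and 7.74 CPM with Dex+Zj7, 4.56 and 3.64 CPM with Dex and 11.6 and 10.4 CPM with vehicle. *Tek*, whose product TIE2 binds angiopoietins, had 4.96 and 7.63 CPM with Dex+Zj7, 3.47 and 2.59 CPM with Dex and 11.1 and 11.4 CPM with vehicle. Both genes were lowest with Dex and intermediate with Dex+Zj7, with no overlap between the 3 groups (Dex+Zj7 against Dex: adjusted p = 0.4 for *Cdh5* and 0.48 for *Tek*). They were named after their values were seen, so their order is not separate evidence. Other members lacked it. Against vehicle, *Mfsd2a* was at 1.14 with Dex+Zj7 and 1.34 with Dex, and *Ramp2* at −0.08 and −0.03. *Podxl*, which encodes the endothelial sialomucin podocalyxin, had 18.7 and 21.1 CPM with Dex+Zj7, 15.2 and 14.3 CPM with Dex and 38.5 and 39.1 CPM with vehicle and was a stable call against vehicle (log2 fold change −0.96, adjusted p = 0.001).

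Of 18 mural cell markers, 9 were lower and 1 was higher, with a median of −0.76 against vehicle and of 0.18 against Dex. *Rgs5*, a regulator of G protein signalling that marks pericytes, had 43.7 and 42.998 CPM with Dex+Zj7, 32.9 and 30.9 CPM with Dex and 81.2 and 75.98 CPM with vehicle. Its 3 groups did not overlap (log2 fold change −0.86, SE 0.07, adjusted p = 6.80e-04), and its change against Dex had an adjusted p of 0.29. *Mcam*, the gene of the adhesion molecule CD146, had 8.56 and 11.7 CPM with Dex+Zj7 against 19.03 and 19.8 CPM with vehicle (log2 fold change −0.94, SE 0.14, adjusted p = 0.0084), and the myosin light chain gene *Myl9* of smooth muscle had 4.78 and 5.297 CPM with Dex+Zj7 against 12.2 and 10.2 CPM with vehicle (log2 fold change −1.15, SE 0.15, adjusted p = 0.005). The 1 higher member, *Rgs4*, which neurons also express, had 183 and 163 CPM with Dex+Zj7 against 138 and 144 CPM with vehicle (log2 fold change 0.30, SE 0.07, adjusted p = 0.043) and was lost with any 1 of the 4 libraries left out. For the whole list, 3 members were called without Dex+Zj7 library 1, 4 without Dex+Zj7 library 2, 4 without vehicle library 1 and 5 without vehicle library 2.

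**Figure D4:**
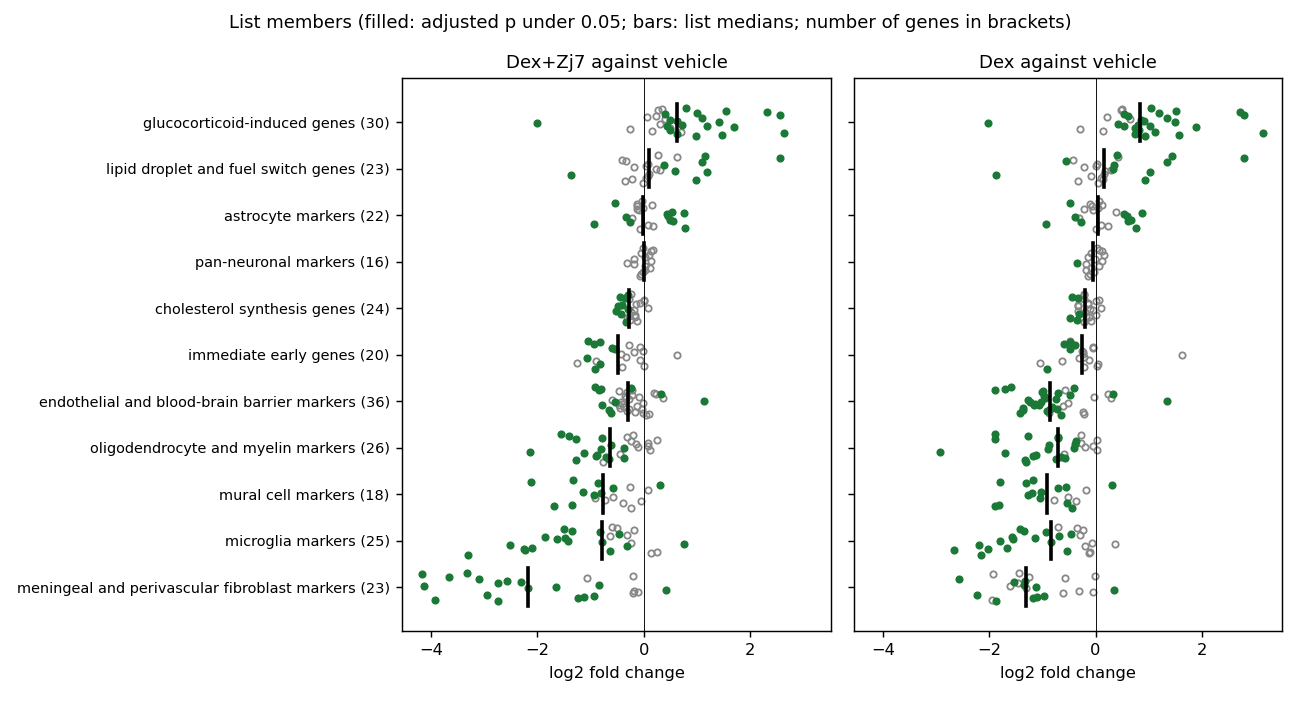
Log2 fold changes (horizontal axes) of the members of 11 gene lists, for Dex+Zj7 against vehicle (left panel) and Dex against vehicle (right panel), with filled points for adjusted p under 0.05 and black bars for list medians. Both panels share the vehicle libraries. The endothelial median is −0.29 with Dex+Zj7 and −0.87 with Dex, while the microglial medians are −0.79 and −0.84.

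Fibroblast genes of the meninges had the lowest median of the gene lists, and libraries of the same group differed in them. Of 23 markers, 17 were lower and 1 was higher with Dex+Zj7, with a median of −2.17. *Col3a1* and *Fn1* alone were stable calls, and 3 members were called without Dex+Zj7 library 1, 3 without Dex+Zj7 library 2, 10 without vehicle library 1 and 16 without vehicle library 2. *Col3a1*, a fibrillar collagen gene, had 0.783 and 0.705 CPM with Dex+Zj7, 1.698 and 0.746 CPM with Dex and 7.01 and 4.45 CPM with vehicle (log2 fold change −2.94, SE 0.38, adjusted p = 0.0052). *Fn1*, the fibronectin gene, which endothelial cells also express, had 43.8 and 44.9 CPM with Dex+Zj7, 33.1 and 29.2 CPM with Dex and 88.1 and 69.97 CPM with vehicle (log2 fold change −0.83, SE 0.11, adjusted p = 0.0053). *Slc13a4*, a sulfate transporter gene of the leptomeninges, had 0.957 and 0.886 CPM with Dex+Zj7, 7.34 and 1.47 CPM with Dex and 23.4 and 9.803 CPM with vehicle (log2 fold change −4.17, SE 0.71, adjusted p = 0.014). *Igf2*, a growth factor gene expressed in the meninges and choroid plexus, had 11.6 and 11.7 CPM with Dex+Zj7, 44.4 and 12.2 CPM with Dex and 105 and 50.4 CPM with vehicle (log2 fold change −2.74, SE 0.54, adjusted p = 0.023). In 23 of 23 members vehicle library 1 was above vehicle library 2, and in 22 of 23 Dex library 1 was above Dex library 2. The summed level of the list overlapped between the groups, at 746 and 941 CPM with Dex+Zj7, 1194 and 744 CPM with Dex, and 1496 and 898 CPM with vehicle, most of it from *Ptgds*, the prostaglandin D synthase gene, which oligodendrocytes also express (590 and 791 CPM with Dex+Zj7, 965 and 606 CPM with Dex and 991 and 594 CPM with vehicle). The higher member was the collagen gene *Col6a3*, at 0.42 on the log2 scale (adjusted p = 0.025), lost with any 1 of the 4 libraries left out. How much membrane each dissection carried was not measured, and its part in these results was not tested. The largest decrease among the named genes, that of the organic anion transporter gene *Slc22a6*, had the same spread, with 0.139 and 0.197 CPM with Dex+Zj7, 2.72 and 0.291 CPM with Dex and 10.3 and 4.04 CPM with vehicle (log2 fold change −5.39, SE 0.96, adjusted p = 0.017), and was lost without either Dex+Zj7 library or vehicle library 1 (adjusted p up to 0.12).

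Red blood cell genes were lower with Dex+Zj7 than in the 4 other libraries. All 5 measured genes of 7 were called lower than with vehicle, none of them as a stable call, and 0 members were called without Dex+Zj7 library 1, 1 without Dex+Zj7 library 2, 0 without vehicle library 1 and 0 without vehicle library 2. Their summed level was 30.3 and 30.8 CPM with Dex+Zj7, 75.6 and 44.4 CPM with Dex, and 70.1 and 64.0 CPM with vehicle. The globin gene *Hbb-bs* had 10.2 and 9.25 CPM with Dex+Zj7, 27.5 and 15.2 CPM with Dex and 22.9 and 21.7 CPM with vehicle (log2 fold change −1.19, SE 0.23, adjusted p = 0.022), and *Alas2*, the erythroid gene of heme synthesis, had 0.487 and 0.394 CPM with Dex+Zj7, 1.698 and 0.801 CPM with Dex and 1.298 and 1.48 CPM with vehicle (log2 fold change −1.65, SE 0.38, adjusted p = 0.039). Globin genes are near-identical copies, so the split of reads between them is uncertain. The amount of blood left in the tissue was not measured, and its part in the vascular results was not tested.

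Tanycytes and ependymal cells line the third ventricle. Of 17 tanycyte markers, 5 were lower and none was higher, none as a stable call, and 1 member was called without Dex+Zj7 library 1, 0 without Dex+Zj7 library 2, 3 without vehicle library 1 and 2 without vehicle library 2. *Rax*, a homeobox gene of tanycytes, had 1.04 and 1.12 CPM with Dex+Zj7, 3.32 and 1.82 CPM with Dex and 2.72 and 2.695 CPM with vehicle (log2 fold change −1.32, SE 0.30, adjusted p = 0.034), and the intermediate filament gene *Vim* had 21.5 and 20.5 CPM with Dex+Zj7, 22.6 and 21.2 CPM with Dex and 37.97 and 30.1 CPM with vehicle (log2 fold change −0.70, SE 0.11, adjusted p = 0.01). In 15 of the 17 the change against Dex was negative, and Dex library 1 was above Dex library 2 in 16. Of 28 ependymal and cilia markers, 4 were lower and 1 was higher, with a median of −0.44 and 26 negative changes, and 0 to 2 were called with a library left out.

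**Figure D5:**
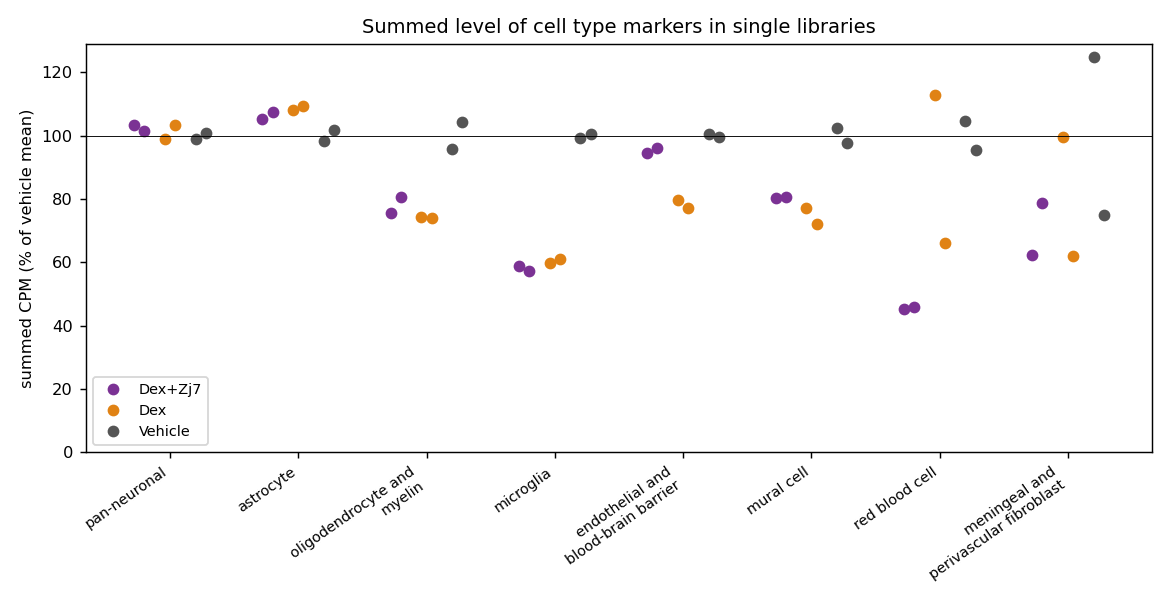
Summed CPM of 8 marker lists in each library, in percent of the vehicle mean (vertical axis, from 0), for Dex+Zj7 (purple), Dex (orange) and vehicle (grey). Microglia markers are at 58.8 and 57.2% with Dex+Zj7, endothelial markers at 94.5 and 96.1% with Dex+Zj7 against 79.6 and 77.1% with Dex, and red blood cell genes at 45.3 and 46.0% with Dex+Zj7.

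Of 20 immediate early genes, which neurons induce when they are active, 8 were lower, none was higher and 12 were not called, with a median of −0.48. Stable calls numbered 2, and 5 members were called without Dex+Zj7 library 1, 2 without Dex+Zj7 library 2, 6 without vehicle library 1 and 3 without vehicle library 2. *Arc*, which encodes a regulator of synaptic AMPA receptors, had 7.79 and 9.25 CPM with Dex+Zj7, 8.07 and 9.07 CPM with Dex and 15.2 and 17.1 CPM with vehicle (log2 fold change −0.92, SE 0.12, adjusted p = 0.0062), and the nuclear receptor gene *Nr4a2* had 11.3 and 10.97 CPM with Dex+Zj7, 13.6 and 14.8 CPM with Dex and 18.1 and 21.2 CPM with vehicle (log2 fold change −0.82, SE 0.11, adjusted p = 0.0051). Both were stable calls. *Egr1*, a zinc finger transcription factor gene, had 26.95 and 19.96 CPM with Dex+Zj7, 48.4 and 37.5 CPM with Dex and 37.6 and 45.2 CPM with vehicle (log2 fold change −0.82, SE 0.16, adjusted p = 0.025), and *Fos* had 9.62 and 6.81 CPM with Dex+Zj7, 16.8 and 10.996 CPM with Dex and 16.2 and 18.2 CPM with vehicle (log2 fold change −1.07, SE 0.21, adjusted p = 0.025). In these genes the Dex+Zj7 libraries were below all other libraries, and the call was lost with at least 2 of the 4 libraries left out (adjusted p up to 0.13 and 0.12). Against Dex, *Egr1* was at −0.87 (adjusted p = 0.4) and *Fos* at −0.76 (adjusted p = 0.79), and 5 of the 20 had an unadjusted p under 0.05. The quasi-likelihood test called 0 of the 20, and DESeq2, edgeR's exact test and limma-voom called 1, 2 and 0.

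Of 24 cholesterol synthesis genes, 9 were lower and none was higher than with vehicle, by small amounts. The median was −0.27, and none of the 9 was a stable call, since 3 members were called without Dex+Zj7 library 1, 0 without Dex+Zj7 library 2, 0 without vehicle library 1 and 1 without vehicle library 2. *Hmgcs1*, the gene of the enzyme that makes HMG-CoA for sterol synthesis, had 192 and 179 CPM with Dex+Zj7 against 256 and 246 CPM with vehicle (log2 fold change −0.44, SE 0.06, adjusted p = 0.0076), and *Sqle*, the squalene epoxidase gene, had 67.5 and 62.1 CPM with Dex+Zj7 against 82.6 and 82.1 CPM with vehicle (log2 fold change −0.35, SE 0.06, adjusted p = 0.017). The groups did not overlap in either gene. Of 24 heat shock and J-protein genes, 3 were lower and none was higher. *Cryab*, which encodes the small heat shock protein alpha-B crystallin and overlaps *Hspb2*, had 30.3 and 27.9 CPM with Dex+Zj7 against 52.96 and 68.2 CPM with vehicle (log2 fold change −1.06, SE 0.13, adjusted p = 0.0043), and *Hsph1*, the Hsp110 gene, had 217 and 206 CPM with Dex+Zj7 against 313 and 417 CPM with vehicle (log2 fold change −0.79, SE 0.12, adjusted p = 0.009), lost without either Dex+Zj7 library. The Hsp90 gene *Hsp90aa1*, whose product holds GR, was −0.37 on the log2 scale (adjusted p = 0.032), lost with any 1 of the 4 libraries left out. Of 22 clock genes, 2 were higher (*Cry2* and *Ciart*) and 2 were lower (*Dbp* and *Hlf*), and 0 members were called without Dex+Zj7 library 1, 2 without Dex+Zj7 library 2, 0 without vehicle library 1 and 0 without vehicle library 2.

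Markers of neurons as such and genes of respiration gave no calls. Among 16 pan-neuronal markers the quasi-likelihood test called 0, with 4 at an unadjusted p under 0.05, and DESeq2, edgeR's exact test and limma-voom called 1, 1 and 0. Their summed level was 8196 and 8049 CPM with Dex+Zj7 against 7847 and 8001 CPM with vehicle. Among 55 respiratory chain genes it called 0, with 6 at an unadjusted p under 0.05, and the other tools called 0, 2 and 0. Of 37 voltage-gated ion channel genes, 7 were higher and 1 was lower. *Kcna1*, the Kv1.1 potassium channel gene, had 131 and 142 CPM with Dex+Zj7 against 96.6 and 98.4 CPM with vehicle (log2 fold change 0.48, SE 0.07, adjusted p = 0.007), and *Cacna1d*, a calcium channel gene, had 134 and 129 CPM with Dex+Zj7 against 102 and 101 CPM with vehicle (log2 fold change 0.37, SE 0.05, adjusted p = 0.0076). None of the channel calls was stable, and 2 members were called without Dex+Zj7 library 1, 2 without Dex+Zj7 library 2, 1 without vehicle library 1 and 1 without vehicle library 2.

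In the direct comparison of Dex+Zj7 with Dex, 1 gene of 21461 was called (0.00466%) and 1124 had an unadjusted p under 0.05 (5.24%), whereas Dex against vehicle gave 2464 calls (11.5%). DESeq2 called 66 genes, edgeR's exact test 96 and limma-voom 1. The called gene was *Ptger1*, the gene of EP1, a receptor of prostaglandin E2. It had 1.305 and 1.31 CPM with Dex+Zj7, 0.07896 and 0.0728 CPM with Dex and 2.34 and 2.603 CPM with vehicle, so Dex+Zj7 lay between Dex and vehicle with no overlap. Its log2 fold change was 4.07 against Dex (SE 0.34, adjusted p = 0.029) and −0.91 against vehicle (SE 0.21, adjusted p = 0.039). The call against Dex was lost without any 1 of the 6 libraries (adjusted p = 0.066 to 0.31), and that against vehicle without any 1 of the 4 (up to 0.21). *Ptger1* overlaps another annotated gene, and without strand reads of overlapping genes cannot be told apart, so its values are uncertain. *Slc38a5*, a glutamine transporter gene, also stood between the groups, with 0.418 and 1.02 CPM with Dex+Zj7, 0.178 and 0.164 CPM with Dex and 4.27 and 3.397 CPM with vehicle, and had an adjusted p of 0.66 against Dex and 0.0078 against vehicle.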

How the data were processed

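The authors removed low-quality reads, adapters, contaminant DNA and PCR duplicates, mapped the rest to the mouse genome mm10 with Bowtie2 and HISAT2 and assembled transcripts with StringTie. The deposited table holds read counts and TPM values for 6 libraries made with a stranded poly(A) kit. Genes without a count in at least 1 of the libraries had been dropped by the authors, so genes silent in 1 group are missing. Their columns of fold changes and p-values were not used. The 6 TPM columns, as the authors deposited them, served only to state the levels of *Agrp* and *Npy* per length.

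Groups came from the sample labels. Levels are CPM of libraries scaled by TMM, and tests were run on the deposited counts with edgeR 4.0.16 in R 4.3.3 (glmQLFit and glmQLFTest, all 6 libraries in 1 fit, no covariate, no further filter). Benjamini-Hochberg adjustment covered all 21461 genes in each comparison, with calls at an adjusted p under 0.05. SE is the size of the log2 fold change over the square root of the F statistic. DESeq2 1.42.0, edgeR's exact test, limma-voom (limma 3.58.1), other scalings, a minimum mean of 1 CPM, stricter thresholds, the 4 libraries alone, a replicate block and leaving out each library were tried as alternatives. The scripts were tested on simulated data.

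Members, the 49 gene lists and the naming rule were chosen with earlier results of these data known. The rule took the 12 genes with the smallest p and the 6 with the largest change in each direction among called genes that averaged 1 CPM or more and whose groups did not overlap, up to 4 members of each list by p, the genes measured by RT-PCR and genes of the study's text, and left out predicted, mitochondrial and ribosomal protein genes. *Tsc22d3*, *Lcn2*, *Itgb2*, *Cd68*, *Spi1*, *Mbp*, *Mobp*, *Cdh5*, *Tek*, *Rgs4*, *Col6a3*, *Igf2*, *Ptgds*, *Alas2*, *Egr1*, *Fos*, *Slc6a3* and *Pdk4* fall outside it and were added after their values were seen. Gene positions and promoters are those of RefSeq for GRCm38.p6, the assembly behind mm10, and 21404 of the 21461 genes had a position.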

Additional observations from a re-analysis of the deposited data

How the results depend on the processing

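The 730 higher genes became 1373 with edgeR's exact test, 1132 in a fit of the 4 libraries of Dex+Zj7 and vehicle alone, 146 at an adjusted p under 0.01 and 175 with a change of at least 2-fold, and the 853 lower genes became 1634 with the exact test, 177 at 0.01 and 311 with at least 2-fold. With total counts in place of TMM, 584 were higher and 1033 lower, so 36.1% of the calls were higher instead of 46.1%, and the median of all genes moved to −0.03. The single call between Dex+Zj7 and Dex became 66 with DESeq2, 96 with the exact test and 1 with limma-voom, and the 2464 calls of Dex against vehicle became 3716 with the exact test. Leaving out 1 of the 6 libraries gave 118 to 1137 higher and 156 to 1195 lower genes, 0 to 3 calls between Dex+Zj7 and Dex, and 538 to 2397 calls of Dex against vehicle. Of these fits, only the counts of Dex+Zj7 against vehicle without a Dex+Zj7 or vehicle library were planned, and the others were added after the data were seen. With the replicate number as a block there were 1302 higher and 1310 lower genes, 0 calls between Dex+Zj7 and Dex, and 3666 calls of Dex against vehicle. Not every pair of groups passed the limit of 0.1 set for replicate numbers that pair libraries. The deviations of same-numbered libraries had correlations of 0.023 for Dex+Zj7 and vehicle, −0.012 for Dex and Dex+Zj7 and 0.32 for Dex and vehicle over 15531 genes. Among named genes that were not called, leaving out 1 library turned the sign of the log2 fold change in *Cd68* (−0.06 to 0.50), *Mobp* (−0.03 to 0.17), *Tsc22d3* (−0.05 to 0.52), *Ptgds* (−0.53 to 0.21), *Spi1* (−0.37 to 0.04) and *Per1* (−0.02 to 0.12). The cause of these shifts was not tested beyond the smaller number of libraries. With 2 libraries a group, small changes of low genes could not be resolved.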

Other observations

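The remaining gene lists gave the following counts for Dex+Zj7 against vehicle. Over all genes 3.40% were higher and 3.97% were lower, and a count near these shares is no result about its list. Of 20 genes of GR, its chaperones and its coregulators, 3 were higher and 2 were lower. Of 42 FoxO and insulin signalling genes, 4 were higher and 6 were lower, among them *S1pr1*, which encodes a receptor for sphingosine 1-phosphate, with 73.98 and 78.3 CPM with Dex+Zj7 against 111 and 107 CPM with vehicle (log2 fold change −0.51, SE 0.06, adjusted p = 0.0035). Of 41 adipocytokine and leptin signalling genes, 5 were higher and 2 were lower. Of 32 solute carriers for glucose and amino acids, 4 were higher and 10 were lower, and the glutamine transporter gene *Slc38a3* had 31.8 and 37.6 CPM with Dex+Zj7 against 57.5 and 58.7 CPM with vehicle (log2 fold change −0.74, SE 0.08, adjusted p = 0.0033). Of 18 complement genes, 1 was higher and 3 were lower, and *C1qc* had 14.1 and 14.02 CPM with Dex+Zj7 against 21.7 and 24.9 CPM with vehicle (log2 fold change −0.73, SE 0.10, adjusted p = 0.0066), a call that was lost without Dex+Zj7 library 1 or vehicle library 2. The Dex+Zj7 and vehicle libraries did not overlap in any of these 3 genes.

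Of 19 VEGF and angiopoietin genes, 1 was higher and 5 were lower. *Apln*, which encodes the peptide apelin, had 11.4 and 10.8 CPM with Dex+Zj7 against 19.4 and 20.97 CPM with vehicle (log2 fold change −0.86, SE 0.09, adjusted p = 0.0026), and *Angptl2*, an angiopoietin-like gene that overlaps *Ralgps1*, had 0.748 and 0.722 CPM with Dex+Zj7 against 4.74 and 3.97 CPM with vehicle (log2 fold change −2.56, SE 0.22, adjusted p = 0.001). Both were called with each of the 4 libraries left out. Of 41 collagens, laminins and integrins, 2 were higher and 7 were lower, and the integrin gene *Itgb4* had 8.18 and 7.77 CPM with Dex+Zj7 against 15.4 and 16.4 CPM with vehicle (log2 fold change −1.0, SE 0.12, adjusted p = 0.0045). Of 44 Wnt, TGF-beta and BMP genes, 2 were higher and 6 were lower, none of them with every library left out. Of 18 GABA receptor subunit genes, 3 were higher and 1 was lower. Of 24 ABC transporter genes, 2 were higher and 2 were lower, beside shares of 3.40% and 3.97% over all genes. Of 29 nuclear receptors other than GR, 1 was higher and 2 were lower, and of 15 Kruppel-like factors 2 were higher. Of 9 stress axis genes and of 10 Id and Hes/Hey genes, 1 each was higher. Of 21 proliferation genes and of 11 choroid plexus markers, 3 each were lower, and of 17 prostaglandin genes 2 were lower. Of 20 markers of neighbouring regions, 2 were higher. The quasi-likelihood test called 0 of the 5 measured border macrophage markers (2 at an unadjusted p under 0.05, and 1, 1 and 1 by DESeq2, the exact test and limma-voom), 0 of the 5 measured lymphocyte and neutrophil markers (1, and 0, 1 and 0) and 0 of the 3 measured pituitary markers (2, and 0, 1 and 0).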
